A study of Homo sapiens with 8 samples.

Results

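Transcript counts of 40 glycolysis and hypoxia response genes were examined in 4 groups of human ovarian cancer cells. The genes were taken by symbol from the deposited count table, which holds 32803 symbols, and all 40 were present in it. They comprise 4 glucose and lactate transporters, 17 glycolytic enzymes, 4 glycolytic regulators, 5 genes of the hypoxia-inducible factor (HIF) pathway and 10 HIF targets. Total RNA was sequenced from UWB1.289, an ovarian serous carcinoma line that lacks functional BRCA1, from UWB1.289+BRCA1, its derivative with BRCA1 put back, and from a PARP inhibitor-resistant derivative of each. The groups, each of 2 libraries (n = 2 throughout), were Olres-UWB1.289 at passage 56 (called resistant deficient), UWB1.289 at passage 29 (parental deficient), Olres-UWB1.289+BRCA1 at passage 45 (resistant proficient) and UWB1.289+BRCA1 at passage 10 (parental proficient). All 4 groups were grown in standard medium without drug. Resistance and a higher passage number went together in both BRCA1 states and cannot be told apart. Whether a resistant line is 1 clone, and whether the libraries of a group came from separate cultures, is not given in the sources used here, so the p-values describe the spread of these libraries alone, and that spread may be technical.

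Glycolysis splits glucose into pyruvate in the cytosol, and lactate dehydrogenase turns pyruvate into lactate, which monocarboxylate transporters carry across the membrane. Pyruvate dehydrogenase kinases hold pyruvate back from the mitochondria by inactivating pyruvate dehydrogenase. In oxygen, prolyl hydroxylases of the EGLN family mark the alpha subunits HIF1A and EPAS1 (HIF-2 alpha) for degradation. When oxygen is low, the alpha subunits escape, pair with ARNT and bind short DNA cores in hypoxia response elements of genes for glucose uptake, glycolysis, pH control and mitophagy. HIF activity is set mainly at the protein level, which transcript counts do not measure. In bulk RNA, fewer cells that express a gene and less RNA per cell cannot be told apart.

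The start-site regions of 6 of the genes are shown because these genes carry the main patterns below, with both directions of change and 1 gene counted almost only in resistant proficient libraries. Each sequence is the RefSeq window of 300 bases, from 250 before to 50 after the annotated start, in build GRCh38.p14, written 5′ to 3′ on the gene's strand. Capitals mark the cores ACGTG and GCGTG of the hypoxia response element, on either strand, so that they also appear as CACGT and CACGC. PGK1 (chrX:78103998-78104297, plus strand), HK2 (chr2:74833877-74834176, plus strand) and EGLN3 (chr14:33951025-33951324, minus strand) fell in resistant deficient and rose in resistant proficient libraries. BNIP3 (chr10:131981874-131982173, minus strand) rose in both, and P4HA1 (chr10:73096817-73097116, minus strand) fell in both. CA9 (chr9:35673678-35673977, plus strand) was counted almost only in resistant proficient libraries.
PGK1: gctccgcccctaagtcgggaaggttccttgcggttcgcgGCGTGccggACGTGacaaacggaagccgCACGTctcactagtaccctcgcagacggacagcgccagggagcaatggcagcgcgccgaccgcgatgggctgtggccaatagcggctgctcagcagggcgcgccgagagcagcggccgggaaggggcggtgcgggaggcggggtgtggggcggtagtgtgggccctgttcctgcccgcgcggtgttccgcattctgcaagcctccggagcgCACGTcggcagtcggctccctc
HK2: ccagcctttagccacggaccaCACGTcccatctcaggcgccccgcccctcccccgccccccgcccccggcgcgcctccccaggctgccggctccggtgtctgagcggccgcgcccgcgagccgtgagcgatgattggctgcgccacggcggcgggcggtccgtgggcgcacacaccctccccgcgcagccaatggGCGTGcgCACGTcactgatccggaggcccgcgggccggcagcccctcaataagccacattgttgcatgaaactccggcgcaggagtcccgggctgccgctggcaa
EGLN3: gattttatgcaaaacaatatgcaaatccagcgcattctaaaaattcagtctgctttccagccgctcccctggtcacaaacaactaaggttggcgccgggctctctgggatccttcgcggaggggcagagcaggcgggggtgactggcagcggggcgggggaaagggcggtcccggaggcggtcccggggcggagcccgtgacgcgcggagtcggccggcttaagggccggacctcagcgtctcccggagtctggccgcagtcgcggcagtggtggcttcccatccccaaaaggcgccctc
BNIP3: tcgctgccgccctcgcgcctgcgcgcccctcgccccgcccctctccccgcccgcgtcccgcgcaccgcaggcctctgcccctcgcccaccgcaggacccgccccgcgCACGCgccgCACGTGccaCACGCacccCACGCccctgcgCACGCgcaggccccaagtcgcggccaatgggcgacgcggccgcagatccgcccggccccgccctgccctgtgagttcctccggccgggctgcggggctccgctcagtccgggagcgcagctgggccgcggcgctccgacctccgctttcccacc
P4HA1: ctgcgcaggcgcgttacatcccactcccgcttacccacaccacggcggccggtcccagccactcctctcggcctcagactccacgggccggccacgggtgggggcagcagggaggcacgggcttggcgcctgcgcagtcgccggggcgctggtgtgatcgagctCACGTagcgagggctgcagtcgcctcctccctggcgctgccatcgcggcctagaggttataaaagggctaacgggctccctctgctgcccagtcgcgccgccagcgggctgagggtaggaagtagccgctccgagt
CA9: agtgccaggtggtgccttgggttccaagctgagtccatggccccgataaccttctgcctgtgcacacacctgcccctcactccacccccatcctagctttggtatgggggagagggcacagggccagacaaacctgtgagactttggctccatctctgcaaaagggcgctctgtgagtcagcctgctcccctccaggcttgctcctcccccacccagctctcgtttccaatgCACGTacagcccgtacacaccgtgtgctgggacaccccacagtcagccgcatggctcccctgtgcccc

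Counting each strand, the PGK1 window held 4 cores, with first bases at positions -211, -202, -183 and 28 relative to the start. The HK2 window held 3 cores, at -229, -55 and -48. The EGLN3 window held neither core. The BNIP3 window held 6 cores from -143 to -104, 2 of which overlap in a palindrome read on both strands. P4HA1 had 1 core at -86, and CA9 had 1 core at -18. The table of RefSeq windows matched 36 of the 40 genes, and 26 of these 36 (72.2%) held at least 1 core, as did 7 of the 8 matched HIF targets and 12 of the 17 glycolytic enzymes. Of all 27305 windows in that table, 48.4% held at least 1 of both cores, 21.6% ACGTG and 36.3% GCGTG. These windows were not matched to those of the 40 genes in GC content, so the gap between the shares is not read as an enrichment. The bases after the annotated start of PFKP, PFKFB3 and GAPDH were not found in a GENCODE v29 transcript of the gene. SLC2A3, SLC16A1, BNIP3L and NDRG1 were not matched. A match to these letters is a description and not a binding site.

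The libraries held 24094821 to 34394107 counts, and levels are given as CPM, counts scaled to a common total after TMM factors. BRCA1 followed the labels, with 2271 CPM in resistant proficient and 202 CPM in parental proficient libraries, and with 34.7 CPM in resistant deficient and 35.6 CPM in parental deficient libraries. Under the same label, BRCA1 was thus far higher in resistant than in parental proficient libraries, while the deficient groups were close. The part of this in the proficient comparison and in the difference of the resistance effects was not tested. PAX8, EPCAM, KRT7, KRT8, KRT18, SOX17 and MUC16, which mark serous carcinoma, were at 27.2 CPM or more in each group, while WT1 was at 8.50 CPM in resistant proficient libraries and at or below 0.219 CPM in the others. Markers of other cell types were checked as lists. Of 5 fibroblast genes DCN, LUM and PDGFRB were at or near 0, but COL1A2 reached 51.6 CPM, and the 5 summed to 4.40 to 9.76 CPM in resistant deficient and 48.7 to 58.0 CPM in parental deficient libraries, and to 29.8 to 30.7 CPM in resistant proficient and 47.2 to 47.7 CPM in parental proficient libraries. The 5 leukocyte genes summed to 18.6 to 29.9 CPM over all libraries, with up to 12.8 CPM of PTPRC, 16.2 of CD68 and 21.3 of CD14 as group means, while CD3E had 2 counts in all. The 3 endothelial genes, mostly CDH5, summed to 38.6 to 45.3 CPM in deficient and 2.49 to 4.68 CPM in proficient libraries. Their part in the results was not tested. Libraries also differed in GC-rich transcripts. Genes with a GC content of 56.7% and over deviated from their mean over the 8 libraries by a median of 1.04 and 0.66 on the log2 scale in resistant deficient replicates 1 and 2 and by 0.23 and 0.09 in parental deficient ones. The same medians were -0.32 and -0.60 in resistant proficient and -0.60 and -0.45 in parental proficient libraries. A refit with each library's trend on GC content removed is therefore given beside named results whose call it changes or whose value it moves by over 1.5 times.

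The first question was how the genes of a resistant line differed from those of its parent. Of the 40 genes, 39 passed the filter on low counts and were tested, all but CA9, and a gene rose or fell when the quasi-likelihood test of edgeR gave an adjusted p under 0.05 over all 16221 genes tested. In resistant deficient against parental deficient libraries, 8 of 39 genes rose (20.5%) and 11 fell (28.2%), where 28.9% of all genes tested rose and 27.0% fell. In resistant proficient against parental proficient libraries, 18 of 39 rose (46.2%) and 9 fell (23.1%), where 25.9% of all genes tested rose and 27.8% fell. The median log2 fold change of the 39 genes was -0.01 in the deficient and 0.20 in the proficient comparison, beside 0.03 and 0.00 over all genes tested. Both comparisons thus had about as many falling genes as the background, and the proficient one had more rising ones. With the GC trend removed, 22 genes instead of 11 fell in the deficient comparison, 8 rose and the median was -0.28, where 35.5% of all genes tested fell and 23.7% rose, and the same correction shifted the median of all genes from 0.03 to -0.08. The proficient comparison then had 18 rising and 10 falling genes and a median of 0.20, where 30.4% of all genes tested rose and 33.5% fell.

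By direction, 5 genes rose in both resistant lines (ENO1, ENO2, BNIP3, BNIP3L and NDRG1) and 5 fell in both (PFKM, SLC16A1, EPAS1, CA12 and P4HA1). Another 5 fell in resistant deficient and rose in resistant proficient libraries, namely HK2, TPI1, PGK1, LDHB and EGLN3, while 0 did the reverse. Each of these sets of 5 is 12.8% of the 39 genes, where 10.2% of all genes tested rose in both, 13.2% fell in both, 5.02% fell in the deficient and rose in the proficient comparison, and 4.28% did the reverse. In the proficient comparison alone 8 rose and 4 fell, and in the deficient one alone 3 rose and 1 fell, and neither comparison called the other 8. Over all genes tested these shares were 10.7%, 10.3%, 14.5%, 8.76% and 23.1%, beside 20.5%, 10.3%, 7.7%, 2.6% and 20.5% of the 39. Being called in 1 comparison and not in the other is not in itself a difference, which is tested further on.

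**Figure D1:**
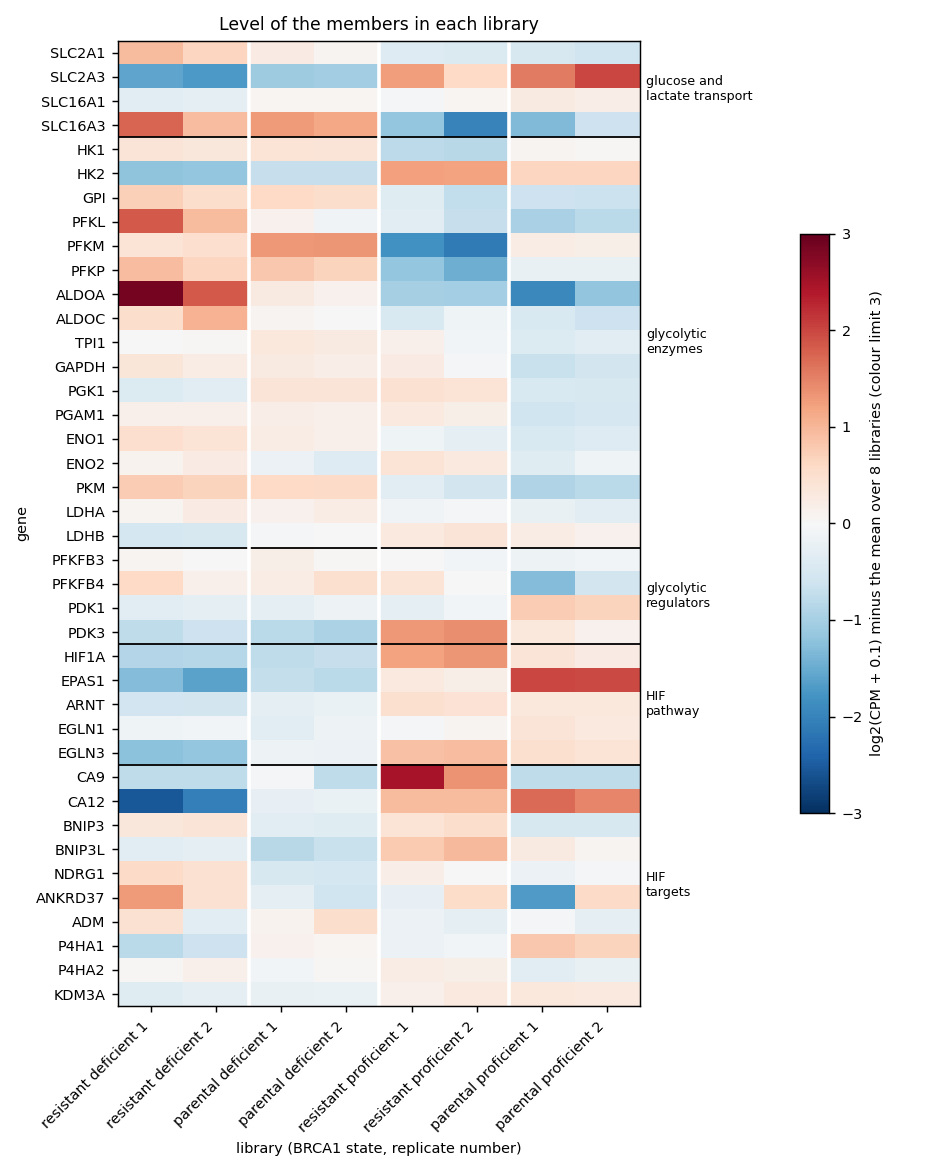
Level of each of the 40 genes in each of the 8 libraries, as log2(CPM + 0.1) minus the gene's mean over the 8 libraries; rows are genes grouped by role, columns are libraries, and red is above and blue below the mean. EPAS1 and SLC2A3 are highest in parental proficient, HK2, HIF1A and PDK3 in resistant proficient, and ALDOA and PFKL in resistant deficient libraries.

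Glucose enters through facilitative transporters, of which SLC2A1 (GLUT1) was the abundant one here. SLC2A1 rose in resistant deficient libraries, at 69.2 and 56.4 CPM against 42.7 and 37.8 CPM in parental deficient libraries (log2 fold change 0.64 ± 0.11 SE, adjusted p = 0.000592), and its groups did not overlap. SLC2A1 rose there by 0.34 with the GC trend removed. It stood at 27.3 and 26.6 CPM in resistant proficient against 25.7 and 23.8 CPM in parental proficient libraries, a difference that did not pass the test. SLC2A3 (GLUT3) was at most 2.39 CPM in any library and did not pass in either resistance comparison. SLC16A1 (MCT1), a lactate carrier, fell a little in both lines, by 0.35 ± 0.06 on the log2 scale in the deficient and by 0.22 ± 0.06 in the proficient comparison. The proficient call of SLC16A1 was lost without parental deficient replicate 2, resistant proficient replicate 1 or parental proficient replicate 1, where its log2 fold change was -0.18, -0.12 and -0.17. SLC16A3 (MCT4), known as a lactate exporter of glycolytic cells, was scarce: its means were 9.81 CPM in resistant deficient and 8.65 CPM in parental deficient libraries, and 1.21 CPM in resistant proficient and 1.88 CPM in parental proficient libraries. It did not pass the test in either resistance comparison, and with the GC trend removed its deficient value turned from 0.18 to -0.82 and its proficient value, -0.62 before, passed at -0.68.

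Hexokinases trap glucose as glucose 6-phosphate, and the balance of HK2 to HK1 moved apart between the BRCA1 states. HK2, an isozyme known from muscle and from tumours, had 81.3 and 84.3 CPM in resistant deficient libraries, against 117 and 116.5 CPM in parental deficient libraries. It had 446 and 438 CPM in resistant proficient libraries, against 296 and 296 CPM in parental proficient libraries. HK2 was thus lowest in resistant deficient and highest in resistant proficient libraries, with no overlap between any 2 groups. It fell by 0.50 ± 0.06 on the log2 scale in the deficient comparison (adjusted p = 4.07e-05) and rose by 0.58 ± 0.06 in the proficient one (adjusted p = 7.08e-06). HK1, the widely expressed isozyme, averaged 82.0 ± 1.16 CPM (SD) in resistant proficient and 149 ± 3.31 CPM in parental proficient libraries and fell there by 0.86 ± 0.06 (adjusted p = 5.92e-07). In the deficient line HK1 was at 185 ± 3.60 CPM in resistant and 189.5 ± 2.15 CPM in parental libraries and did not pass the test, though with the GC trend removed it fell by 0.30. Per kilobase of annotated transcript, HK2 was 3.36 and 3.37 times the level of HK1 in resistant proficient libraries, against 1.22 and 1.26 times in parental proficient libraries. The same ratio was 0.271 and 0.289 in resistant deficient libraries, against 0.383 and 0.387 in parental deficient libraries.

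Phosphofructokinase commits sugar to glycolysis and is built from the subunits PFKM, PFKP and PFKL, which are named for muscle, platelet and liver. PFKM fell in both resistant lines. It had 45.9 and 49.2 CPM in resistant deficient libraries, against 85.1 and 86.5 CPM in parental deficient libraries (log2 fold change -0.85 ± 0.10, adjusted p = 2.91e-05). It had 9.68 and 7.83 CPM in resistant proficient libraries, against 40.5 and 38.7 CPM in parental proficient libraries, which is 4.50-fold lower (log2 fold change -2.17 ± 0.11, adjusted p = 5.11e-08). No other of the 39 genes fell further in the proficient comparison. PFKP passed the test in the proficient comparison, at 32.4 and 26.0 CPM in resistant proficient against 61.6 and 62.3 CPM in parental proficient libraries (-1.08 ± 0.12, adjusted p = 2e-05). In the deficient line PFKP had 138 and 113 CPM in resistant against 128 and 115 CPM in parental libraries, which overlapped, and its value of 0.05 turned to -0.51 with the GC trend removed.

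PFKL, the transcript richest in GC of the 40 (63.5%), had 61.4 and 33.1 CPM in resistant deficient libraries, against 18.6 and 15.8 CPM in parental deficient libraries. It rose there by 1.46 ± 0.24 on the log2 scale (adjusted p = 0.000424), and with the GC trend removed by 0.38. Replicate 1 of the resistant deficient group was the higher of the pair for PFKL and also the library with the highest median deviation of GC-rich genes. PFKL had 13.4 and 10.4 CPM in resistant proficient libraries, against 8.55 and 9.58 CPM in parental proficient libraries, and did not pass the test (0.39), though it passed with the GC trend removed (0.34). GPI, the isomerase before this step, ranged from 156 to 429 CPM over the 8 libraries and did not pass in either resistance comparison. With the GC trend removed, the value of GPI in the deficient comparison turned from 0.07 to -0.16. Per kilobase, the ratio of PFKM to PFKP was 0.274 and 0.360 in resistant deficient against 0.549 and 0.618 in parental deficient libraries. It was 0.246 and 0.248 in resistant proficient against 0.541 and 0.512 in parental proficient libraries, so that it was lower in both resistant lines.

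**Figure D2:**
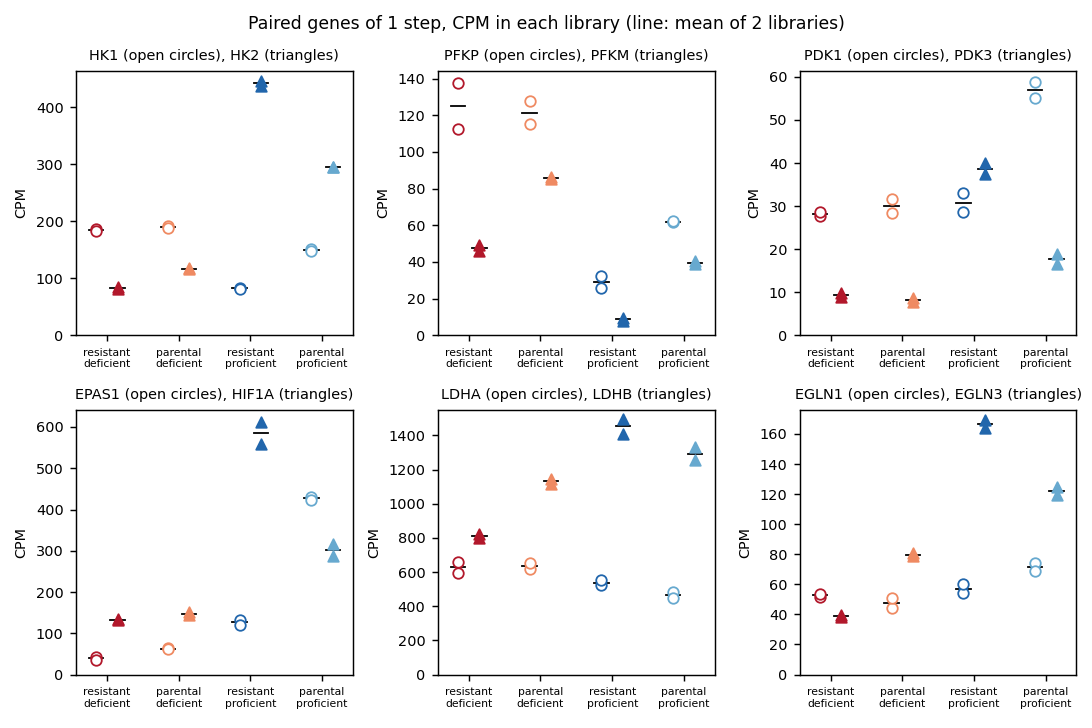
CPM of both genes of 6 pairs in each library (open circles, first gene; filled triangles, second gene; short lines, means of 2 libraries; groups along the x axis with each resistant group left of its parent). HK2 is above HK1 in proficient and below it in deficient libraries, and HIF1A is above EPAS1 in every group except the parental proficient one.

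Of the aldolases, which cleave fructose 1,6-bisphosphate, ALDOA, the main form of most tissues, had low counts. It had 35.6 and 17.2 CPM in resistant deficient libraries, against 5.76 and 5.22 CPM in parental deficient libraries, and rose by 2.26 ± 0.31 on the log2 scale (adjusted p = 0.00011). Its value was 1.49 with the GC trend removed and 1.62 without resistant deficient replicate 1. In the proficient line it had 2.33 and 2.29 CPM in resistant against 1.17 and 2.04 CPM in parental libraries and did not pass. In GENCODE v29 a protein-coding gene on the same strand, AC093512.2, shares 42.3% of the exon bases of ALDOA. The count table holds no such symbol, and the annotation used for counting is not given, so the level of ALDOA is uncertain. ALDOC was at most 0.868 CPM and did not pass.

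Of the 17 glycolytic enzymes, 10 rose in resistant proficient libraries (58.8%, where 25.9% of all genes tested rose) and 3 fell. Beside HK2 those that rose were TPI1, GAPDH, PGK1, PGAM1, ENO1, ENO2, PKM, LDHA and LDHB, all of later steps, and the calls of ENO1, LDHA and LDHB were lost without single libraries, as given with each. In the deficient comparison 4 of these 10 fell (HK2, TPI1, PGK1 and LDHB), 2 rose (ENO1 and ENO2) and 4 did not pass. Of all 4205 genes that rose in the proficient comparison, 815 fell, 1647 rose and 1743 did not pass in the deficient one. PGK1, which makes the first ATP of the pathway, had 331 and 354 CPM in resistant deficient libraries, against 581 and 577 CPM in parental deficient libraries (-0.76 ± 0.06, adjusted p = 2.34e-06). It had 608 and 585 CPM in resistant proficient libraries, against 322 and 317 CPM in parental proficient libraries (0.90 ± 0.06, adjusted p = 3.43e-07). The resistant proficient and parental deficient libraries were the high ones, and each resistant group was clear of its parent.

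GAPDH, often used as a loading control, averaged 2276 ± 328.5 CPM in resistant proficient and 1396 ± 72.4 CPM in parental proficient libraries (0.70 ± 0.09, adjusted p = 6.8e-05). In the deficient line it averaged 2594 ± 170.2 CPM in resistant and 2501 ± 102 CPM in parental libraries and did not pass, although with the GC trend removed it fell by 0.56. PGAM1, a mutase, did not pass in the deficient comparison at -0.03, though with the GC trend removed it fell by 0.20. PGAM1 rose in the proficient comparison by 0.78 ± 0.07, TPI1, an isomerase, by 0.42 ± 0.08 and PKM, pyruvate kinase, by 0.41 ± 0.07. TPI1 fell in the deficient comparison by 0.27 ± 0.08, a call that was lost without parental deficient replicate 1 (-0.26). With the GC trend removed TPI1 fell in that comparison by 0.65. PKM did not pass there at 0.15, and with the GC trend removed it fell by 0.44. TPI1, GAPDH, ENO2 and LDHB lie on chromosome 12 and the other 6 of the 10 on other chromosomes.

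The enolases and lactate dehydrogenases had smaller fold changes than PGK1 in both comparisons. ENO1, the main enolase, averaged 3601 CPM in resistant deficient and 2985 CPM in parental deficient libraries, and 2259 CPM in resistant proficient and 1960 CPM in parental proficient libraries. It rose by 0.27 ± 0.07 in the deficient comparison, which turned to a fall of 0.34 with the GC trend removed and was lost without parental deficient replicate 2 (0.21). Its rise of 0.20 ± 0.07 in the proficient comparison was lost with the GC trend removed (0.11) and without resistant proficient replicate 1, parental proficient replicate 1 or parental proficient replicate 2 (0.17, 0.21 and 0.23). ENO2, the neuronal isozyme, was at 10.6 to 18.5 CPM and rose by 0.45 ± 0.14 and 0.60 ± 0.14. The deficient call of ENO2 was lost with the GC trend removed (0.15) and without resistant deficient replicate 2 or parental deficient replicate 2 (0.35 and 0.32).

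LDHB, the subunit known to favour turning lactate back to pyruvate, averaged 811 ± 19.8 CPM in resistant deficient and 1131 ± 21.6 CPM in parental deficient libraries and fell by 0.48 ± 0.06 (adjusted p = 6.88e-05). In the proficient line it rose by 0.17 ± 0.06, a call that was lost without parental deficient replicate 1, resistant proficient replicate 2 or parental proficient replicate 2 (0.16, 0.16 and 0.12). LDHA, the subunit known to favour lactate, was at 597 to 662 CPM in deficient libraries of both kinds and did not pass. It rose by 0.20 ± 0.07 in the proficient comparison, a call that was lost without resistant proficient replicate 2 or parental proficient replicate 2 (0.20 and 0.15). Another gene on the same strand, AC010197.2, shares 33.4% of the exon bases of LDHB in GENCODE v29. It too is absent from the count table by symbol, and the level of LDHB is likewise uncertain.

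Of the 4 regulators, 2 rose and 1 fell in the proficient comparison, where 25.9% of all genes tested rose and 27.8% fell. PDK3 and PDK1 both inactivate pyruvate dehydrogenase, and they moved in opposite directions. PDK3 had 37.3 and 39.97 CPM in resistant proficient libraries, against 18.8 and 16.6 CPM in parental proficient libraries (1.13 ± 0.12, adjusted p = 1.82e-05). It had 8.82 and 9.83 CPM in resistant deficient against 8.62 and 7.72 CPM in parental deficient libraries and did not pass (0.20), though with the GC trend removed it rose by 0.30. PDK1 averaged 30.8 ± 3.21 CPM in resistant proficient and 57.0 ± 2.66 CPM in parental proficient libraries and fell by 0.89 ± 0.10 (adjusted p = 2.58e-05). PDK1 did not pass in the deficient line, where it was at 28.1 CPM in resistant and 29.9 CPM in parental libraries. Per kilobase, PDK3 was 9.66 and 8.92 times PDK1 in resistant proficient against 2.36 and 2.22 times in parental proficient libraries. These ratios depend on the annotated lengths used, 14193 bases for PDK1 and 1921 for PDK3. In counts, PDK3 was 1.31 and 1.21 times PDK1 in resistant proficient and 0.319 and 0.301 times in parental proficient libraries.

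PFKFB3 and PFKFB4 make fructose 2,6-bisphosphate, an activator of phosphofructokinase. PFKFB4, a HIF-inducible form, had 8.26 and 6.08 CPM in resistant proficient libraries, against 2.46 and 4.18 CPM in parental proficient libraries, and rose by 1.10 ± 0.27 (adjusted p = 0.00533). It had 9.36 and 6.86 CPM in resistant deficient against 7.27 and 8.69 CPM in parental deficient libraries, which overlapped. With the GC trend removed its deficient value turned from 0.02 to -0.44. PFKFB3 stayed within 44.99 to 55.8 CPM over all 8 libraries and did not pass in either resistance comparison, although with the GC trend removed it fell by 0.40 in the deficient one.

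Of the HIF alpha subunits, HIF1A rose and EPAS1 fell in resistant proficient libraries. HIF1A had 559 and 612.5 CPM in resistant proficient libraries, against 317 and 288 CPM in parental proficient libraries (0.95 ± 0.07, adjusted p = 8.45e-07). It had 132 and 135 CPM in resistant deficient libraries, against 144 and 151 CPM in parental deficient libraries, and did not pass. EPAS1 had 131 and 121 CPM in resistant proficient libraries, against 430.4 and 424 CPM in parental proficient libraries, a 3.38-fold fall (-1.76 ± 0.09, adjusted p = 5.78e-08). The parental proficient libraries were by far the highest in EPAS1. In the deficient line EPAS1 had 43.4 and 35.5 CPM in resistant against 65.2 and 60.9 CPM in parental libraries and fell by 0.68 ± 0.09 (adjusted p = 0.00012). Per kilobase, HIF1A was 5.62 and 6.66 times EPAS1 in resistant proficient libraries, against 0.971 and 0.894 times in parental proficient libraries. The ratio was 3.99 and 5.02 in resistant deficient libraries, against 2.91 and 3.27 in parental deficient libraries, so that it was higher in each resistant line than in its parent.

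EGLN3, a prolyl hydroxylase that HIF itself induces, had 38.1 and 39.7 CPM in resistant deficient libraries, against 80.5 and 79.0 CPM in parental deficient libraries. It fell by 1.04 ± 0.07 on the log2 scale (adjusted p = 6.16e-07). It had 164 and 169 CPM in resistant proficient libraries, against 125 and 119.5 CPM in parental proficient libraries, and rose by 0.45 ± 0.06 (adjusted p = 0.000134). The order of its 4 groups was resistant deficient, parental deficient, parental proficient and resistant proficient from low to high, with no overlap. EGLN1, the main oxygen-sensing hydroxylase, was at 44.4 to 74.1 CPM and did not pass in the deficient line (0.15), though with the GC trend removed it rose by 0.25. It fell by 0.33 ± 0.09 in the proficient one, a call that was lost without resistant proficient replicate 1 or parental proficient replicate 1 (-0.20 and -0.24). ARNT, the shared partner of the alpha subunits, fell by 0.33 ± 0.07 in the deficient comparison, averaging 61.8 CPM in resistant and 77.9 CPM in parental libraries, and did not pass in the proficient one (0.15), where with the GC trend removed it rose by 0.18.

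The HIF targets did not move as 1 group. BNIP3 and BNIP3L, mitochondrial proteins that recruit mitophagy, rose in both lines. BNIP3 averaged 43.7 ± 1.11 CPM in resistant deficient and 26.5 ± 0.53 CPM in parental deficient libraries (0.72 ± 0.09, adjusted p = 5.43e-05). It averaged 46.9 ± 2.46 CPM in resistant proficient and 24.2 ± 0.128 CPM in parental proficient libraries (0.95 ± 0.09, adjusted p = 5.24e-06). BNIP3 thus had close levels in the 2 resistant groups and close levels in the 2 parental groups. BNIP3L rose by 0.45 ± 0.10 in the deficient and by 0.71 ± 0.10 in the proficient comparison.

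P4HA1, a collagen prolyl hydroxylase, went the other way in both lines. It averaged 64.3 ± 5.84 CPM in resistant deficient and 113 ± 4.17 CPM in parental deficient libraries (-0.81 ± 0.08, adjusted p = 1.53e-05). It averaged 96.1 ± 4.29 CPM in resistant proficient and 177 ± 11.9 CPM in parental proficient libraries (-0.88 ± 0.08, adjusted p = 4.89e-06). P4HA2, its paralog, rose in the proficient comparison by 0.48 ± 0.12 and did not pass in the deficient one. NDRG1, a stress-induced gene, had 127 and 118 CPM in resistant deficient libraries, against 61.3 and 59.6 CPM in parental deficient libraries, and rose by 1.02 ± 0.08 (adjusted p = 2.68e-06), or by 0.48 with the GC trend removed. It had 97.6 and 86.2 CPM in resistant proficient against 75.8 and 81.4 CPM in parental proficient libraries, a rise of 0.23 ± 0.08. That proficient call was lost with the GC trend removed (0.13) and without parental deficient replicate 1, resistant proficient replicate 1, parental proficient replicate 1 or parental proficient replicate 2 (0.22, 0.18, 0.21 and 0.27).

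The carbonic anhydrases CA9 and CA12 sit at the cell surface and regulate pH. CA12 had 0.504 and 0.752 CPM in resistant deficient libraries, against 2.86 and 2.96 CPM in parental deficient libraries, which is 4.54-fold lower (-2.18 ± 0.25, adjusted p = 3.31e-05). It had 6.66 and 6.66 CPM in resistant proficient libraries, against 11.4 and 9.71 CPM in parental proficient libraries, and fell by 0.66 ± 0.19. The proficient call was lost without resistant proficient replicate 1, resistant proficient replicate 2 or parental proficient replicate 1 (-0.61, -0.62 and -0.51). CA9, a widely used hypoxia marker, had 24 and 8 counts in resistant proficient and 0 in both parental proficient libraries, at least 10.8-fold higher when 3 counts over the group are taken as the floor. That bound was 5.97-fold without resistant proficient replicate 1 and 14.9-fold without replicate 2. It had 0 counts in resistant deficient and 2 in parental deficient libraries. ARHGEF39, on the other strand, shares 38.5% of the exon bases of CA9 in GENCODE v29, and since the strand setting of the counting is not given, the few CA9 counts cannot be told apart from reads of that gene. ADM, ANKRD37 and KDM3A did not pass in either resistance comparison. ADM was at -0.25 in the deficient comparison, which was -0.74 and passed without resistant deficient replicate 1, turned to 0.09 without replicate 2, and was -0.86 and passed with the GC trend removed. ADM was at most 4.39 CPM and ANKRD37 at most 0.684 CPM, while KDM3A, a histone demethylase, ranged from 75.4 to 121 CPM. UFSP2, on the other strand and present in the count table, shares 35.2% of the exon bases of ANKRD37, whose level is therefore uncertain.

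**Figure D3:**
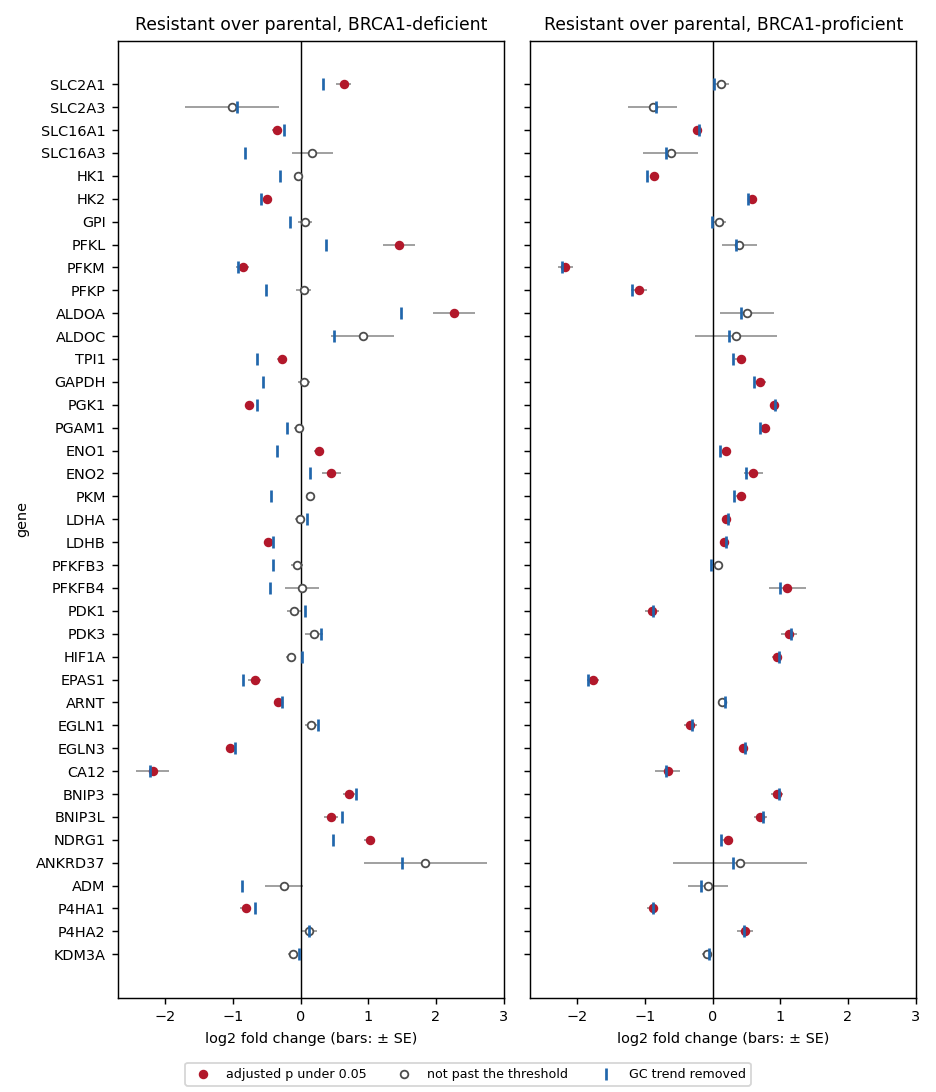
Log2 fold change of the 39 tested genes in resistant over parental libraries of each BRCA1 state (x axis; circles with bars of ± 1 SE, red where the adjusted p was under 0.05; blue ticks, the value with the GC trend removed). In the proficient panel the enzymes TPI1 to LDHB all lie right of 0, and in the deficient panel the blue ticks lie left of the circles for GC-rich genes such as PFKL, GAPDH, ENO1 and PKM.

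Whether the resistance effect itself differed between the BRCA1 states was tested as the proficient effect minus the deficient effect. Each state had a single pair of lines, and passages ran from 29 to 56 in the deficient and from 10 to 45 in the proficient pair. A difference therefore describes these pairs of lines and cannot be assigned to BRCA1 state. This difference was called above 0 for 12 of 39 genes (30.8%), where 21.4% of all genes tested were, and below 0 for 10 (25.6%), where 25.3% were. The largest positive difference was that of PGK1, at 1.66 ± 0.08 on the log2 scale (adjusted p = 1.05e-07). CA12 followed with 1.52 ± 0.31, EGLN3 with 1.48 ± 0.09, HIF1A with 1.10 ± 0.10, PFKFB4 with 1.09 ± 0.37 and HK2 with 1.08 ± 0.08. CA12 fell in both lines, so its positive difference marks a smaller fall in the proficient one. After ALDOA, which is described below, the largest negative differences were those of PFKM at -1.32 ± 0.14, PFKP at -1.13 ± 0.16 and EPAS1 at -1.08 ± 0.13. With the GC trend removed the PFKP difference was -0.67. Among the other enzymes, TPI1, GAPDH, PGAM1 and LDHB had positive differences of 0.65 to 0.81, and HK1 a negative one of -0.83. Removal of the GC trend moved the GAPDH difference from 0.65 to 1.16. By role, 6 of 17 glycolytic enzymes had a called positive and 5 a called negative difference.

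A call of this difference was lost on leaving out a library for 5 of the 22 genes. ALDOA had -1.76 ± 0.50, which was -1.08 without resistant deficient replicate 1 and was lost at -1.29 without parental proficient replicate 2. With the GC trend removed the ALDOA difference was -1.07. PFKL had -1.06 ± 0.35 and was lost without resistant deficient replicate 1, parental deficient replicate 2, resistant proficient replicate 2, parental proficient replicate 1 or parental proficient replicate 2 (-0.48, -0.87, -0.83, -1.08 and -0.98). It was also lost with the GC trend removed, at -0.03. PFKFB4 had 1.09 ± 0.37 and was lost without parental deficient replicate 2, resistant proficient replicate 1 or parental proficient replicate 1 (1.02, 0.92 and 0.82). SLC2A1 had -0.52 ± 0.16 and was lost without resistant deficient replicate 1, parental deficient replicate 2, either resistant proficient replicate or parental proficient replicate 1 (-0.29, -0.36, -0.45, -0.43 and -0.40). With the GC trend removed the SLC2A1 difference was -0.32. EGLN1 had -0.48 ± 0.13 and was lost without parental deficient replicate 1, resistant proficient replicate 1 or parental proficient replicate 1 (-0.38, -0.32 and -0.36).

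The BRCA1-proficient and deficient lines were also compared at the same resistance state. The proficient groups were at lower passages, 10 against 29 in the parental and 45 against 56 in the resistant comparison. BRCA1 state and passage number therefore cannot be told apart in these comparisons. In parental proficient against parental deficient libraries, 16 of 39 genes rose and 16 fell (41.0% each), where 32.3% of all genes tested rose and 30.1% fell. Of the 17 glycolytic enzymes 13 fell and 2 rose, with a median log2 fold change of -0.77, while all 5 HIF pathway genes rose, with a median of 0.62. The median of the enzymes was -0.30 with the GC trend removed, and 10 of them then fell. In that fit 35.8% of all genes tested rose and 28.5% fell, with a median over all genes of 0.06. EPAS1 stood out at 427 ± 4.46 CPM in parental proficient and 63.1 ± 3.09 CPM in parental deficient libraries, 6.78-fold higher (2.76 ± 0.09, adjusted p = 2.76e-09). HK2 rose by 1.34 ± 0.06, PDK3 by 1.11 ± 0.13 and HIF1A by 1.04 ± 0.07, while PKM fell by 1.43 ± 0.07 (0.84 with the GC trend removed) and GPI by 1.19 ± 0.11. SLC2A3 averaged 2.06 CPM in parental proficient and 0.199 CPM in parental deficient libraries (3.35 ± 0.45, adjusted p = 6.39e-05).

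In resistant proficient against resistant deficient libraries, 14 of 39 genes rose (35.9%) and 13 fell (33.3%), where 36.3% of all genes tested rose and 37.5% fell. The largest called differences were a rise of CA12 by 3.38 ± 0.24 and of SLC2A3 by 3.48 ± 0.54, and falls of ALDOA by 3.51 ± 0.34 (-2.87 without resistant deficient replicate 1), of SLC16A3 by 2.98 ± 0.36 and of PFKM by 2.44 ± 0.11. HK2 rose by 2.42 ± 0.06 (5.33-fold), HIF1A by 2.14 ± 0.07, EGLN3 by 2.10 ± 0.07 and PDK3 by 2.05 ± 0.13. CA9 had 32 counts in resistant proficient and 0 in resistant deficient libraries, at least 12.6-fold higher against the same floor, or 6.92-fold without resistant proficient replicate 1. With the GC trend removed, 22 genes rose and 10 fell, where 41.1% of all genes tested rose and 31.6% fell, the median of the 39 was 0.39 instead of 0.09, and the values of ALDOA and SLC16A3 were -2.16 and -1.30. The parental and resistant comparisons share no library with each other, but each shares its libraries with a resistance comparison.

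In 3 of the 4 comparisons between groups, log2 fold changes varied with the GC content of the transcripts. The 39 tested genes had a median GC content of 52.6%, beside 48.8% over all genes with a value. Across the 39 genes, Spearman's rho between GC content and log2 fold change was 0.445 in the deficient and -0.006 in the proficient resistance comparison, and across 15378 genes it was 0.462 and 0.081. It was -0.645 across the 39 genes in the parental and -0.707 in the resistant comparison of BRCA1 states. Genes of 1 table share their libraries and are not independent replicates, so these are descriptions. The fall of EPAS1 and PFKM and the changes of PGK1, HK2, EGLN3, BNIP3 and P4HA1 moved by at most 0.16 on the log2 scale between both fits in either resistance comparison. What produced the GC trend was not tested.

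**Figure D4:**
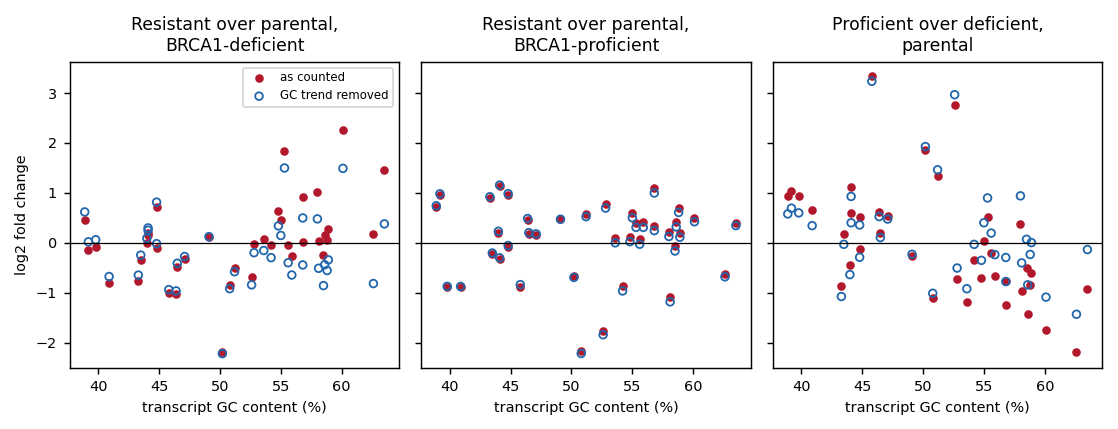
Log2 fold change (y axis) against transcript GC content in percent (x axis) for the 39 tested genes in 3 comparisons; red dots are values as counted, and open blue circles are values with the GC trend removed. Red dots climb with GC content in the deficient resistance comparison and descend with it in the parental comparison of BRCA1 states, while both sets nearly coincide in the proficient resistance comparison.

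The values of neighbouring genes on the chromosome were set beside those of the 39 genes. For each gene the 10 tested protein-coding genes on either side in RefSeq order were taken, and their median log2 fold change was set beside the range of the same median over 13749 such windows. The 5th to 95th percentile of all windows ran from -0.65 to 0.95 in the deficient and from -0.60 to 0.56 in the proficient resistance comparison. PGK1, on chromosome X, lay outside it in the deficient comparison, where all 20 of its neighbours were below 0 with a median of -0.79, beside -0.76 for PGK1 itself. EGLN3, on chromosome 14, likewise had 20 of 20 neighbours below 0 there, with a median of -0.98 beside its own -1.04. In the proficient comparison 17 of 18 neighbours of PFKP, on chromosome 10, were below 0, with a median of -0.96 beside -1.08 for PFKP. PFKFB3, also on chromosome 10, had 20 of 20 neighbours below 0 with a median of -0.84 and itself stood at 0.08.

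SLC16A3, which passed in neither comparison, stood at 0.18 in the deficient one, where 20 of 20 neighbours were above 0 (median 1.17), and at -0.62 in the proficient one, where 18 of 20 were (median 0.66). PFKM and LDHB, on chromosome 12, lay outside the range in the deficient comparison with neighbour medians of -0.66 and -0.70. EGLN1, on chromosome 1, did so in the proficient one with -0.87. In contrast, EPAS1 and PFKM in the proficient comparison and CA12 in the deficient one fell where their neighbours had medians of -0.07, -0.20 and 0.01. The rises of PGK1, HK2 and HIF1A in the proficient comparison stood beside medians of 0.51, -0.21 and -0.10. The 8 genes that rose in the deficient comparison had neighbour medians inside the range. These were 0.83 for BNIP3, 0.68 for PFKL and ALDOA, 0.36 for ENO1, 0.22 for NDRG1 and 0.02 for SLC2A1. They were -0.08 for ENO2 and -0.20 for BNIP3L. In all, 5 of 39 genes in the deficient and 4 of 39 in the proficient comparison had neighbours outside the range, which by its construction leaves out 10% of all windows, so that these counts are near the background. DNA copy number was not measured, and its part in these values was not tested.

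**Figure D5:**
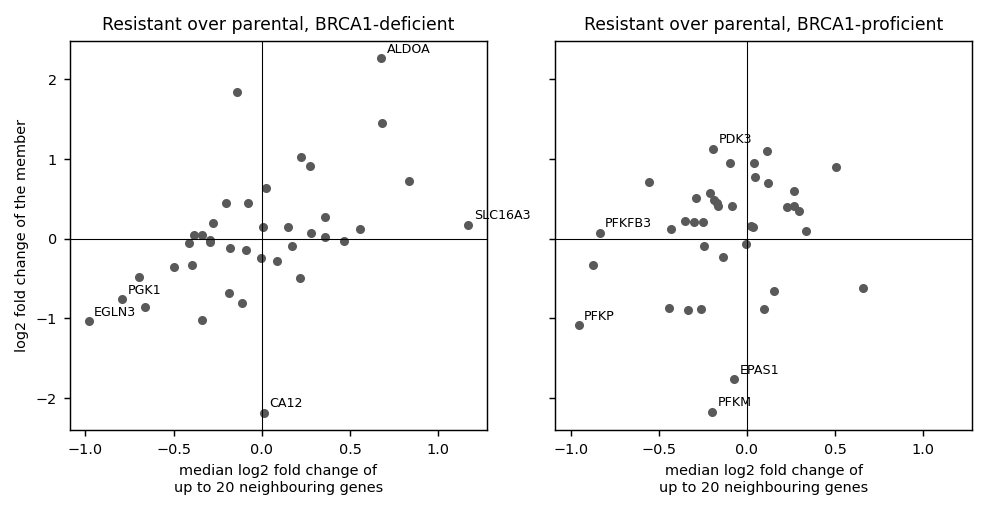
Log2 fold change of each of the 39 tested genes (y axis) against the median log2 fold change of up to 20 neighbouring tested genes (x axis), for resistant over parental libraries of each BRCA1 state. PGK1, EGLN3 and PFKP lie near the diagonal at negative values, while PFKM and EPAS1 (proficient) and CA12 (deficient) lie low at a neighbour median near 0.

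Other genes around glycolysis and HIF were summarised by list, beside the shares of all genes tested that rose and fell, 28.9% and 27.0% in the deficient and 25.9% and 27.8% in the proficient comparison. With 7 to 25 genes a list, the counts are descriptions, and nothing is read from one near those shares. Of 7 tested pentose phosphate genes, 3 rose and 1 fell in the deficient comparison, while 1 rose and 4 fell in the proficient one. The falling ones included RPIA, ribose 5-phosphate isomerase (-1.18 ± 0.08). Glycogen and gluconeogenesis genes had 0 rises and 5 falls among 10 in the deficient and 2 rises and 4 falls in the proficient comparison, and PYGL, a glycogen phosphorylase, fell by 1.25 ± 0.06 and by 0.91 ± 0.06. Of 16 genes of the citric acid cycle, 3 rose and 7 fell in the deficient and 2 rose and 6 fell in the proficient comparison, where FH, fumarase, fell by 1.13 ± 0.06. Pyruvate dehydrogenase and its partners had 4 rises and 3 falls among 13 in the deficient and 6 rises and 3 falls in the proficient comparison. In the proficient line PDK4 and PDK2, other kinases of the complex, rose by 1.91 ± 0.21 and 1.36 ± 0.18 beside PDK3.

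Of 18 other tested hexose transporters and isozymes, 6 rose and 8 fell in the deficient and 4 rose and 7 fell in the proficient comparison. HKDC1, a hexokinase relative, averaged 0.346 CPM in resistant deficient and 15.3 CPM in parental deficient libraries (-5.42 ± 0.21, adjusted p = 2.09e-08). SLC2A12, a hexose transporter, averaged 312 CPM in resistant proficient and 37.5 CPM in parental proficient libraries (3.06 ± 0.08, adjusted p = 6.31e-10). Other HIF pathway factors had 7 rises and 2 falls among 11 in the deficient and 4 rises and 3 falls in the proficient comparison. In the proficient line HIF1AN, which hydroxylates HIF alpha, rose by 1.04 ± 0.07, and VHL, which targets it for degradation, fell by 0.86 ± 0.08. Other HIF targets had 9 rises and 9 falls among 25 in the deficient and 5 rises and 13 falls in the proficient comparison. VEGFA, the angiogenic factor, averaged 18.7 CPM in resistant proficient and 95.6 CPM in parental proficient libraries (-2.35 ± 0.09, adjusted p = 5.47e-09). IGFBP3 rose by 1.54 ± 0.06 in the deficient comparison and fell by 1.41 ± 0.06 in the proficient one.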

How the data were processed

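Total RNA of 8 libraries, 2 in each of 4 groups assigned from the sample titles, had been sequenced, and 1 deposited table of counts per gene symbol was analysed. The deposited counts are whole, unnormalised numbers of reads. The submitters' processing notes name build GRCh37 and the tools Trimmomatic 0.39, Subread 2.0.1, featureCounts and DESeq2 1.24.0. The annotation and the strand setting of the counting are not given, so overlapping genes and near-identical copies may share reads.

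The 40 genes, the other gene lists and the tests were chosen with earlier results of these data known. Counts were tested with edgeR 4.0.16 (R 4.3.3, quasi-likelihood test) on TMM-scaled totals after filterByExpr, which kept 16221 genes. All 8 libraries entered 1 fit with 4 residual degrees of freedom, and p-values were adjusted by Benjamini-Hochberg over all genes tested. A gene was called at an adjusted p under 0.05. The SE was taken from the log2 fold change and the F statistic. Values are given for each library where a gene was called with at least a 2-fold change in a resistance comparison or in their difference, and isozyme pairs are described whatever their values. From each other list at most 2 genes per direction and resistance comparison, those with the smallest p, could be named. The values of 1 such gene are not reported here. Floors cover counting error only. GC content and length are those of GENCODE v29 transcripts, available for all 40 genes. Gene order and promoters are from RefSeq, build GRCh38.p14.

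Alternatives tried were scaling by RLE or by library totals, leaving out the filter or asking for at least 1 CPM in 2 libraries, DESeq2 1.42.0, fits of 2 groups at a time, a block for the replicate number, leaving out each library, and removal of the GC trend with and without the block. That trend was a natural spline (5 degrees of freedom) of each library's deviation in log2 CPM on GC content. Replicate libraries differed by more than sampling noise in all 4 groups, with a chi-square over genes of 4.21 to 22.45 per degree of freedom. The main fit was also run on simulated counts with known changes, for the resistance comparisons alone. The other comparisons and the alternatives, removal of the GC trend included, were not tested in that way.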

Additional observations from a re-analysis of the deposited data

Results flagged for a closer look

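For 22 of the 39 tested genes the resistance effect differed between the proficient and the deficient pair of lines. The difference was called above 0 for 12 genes (30.8%), where 21.4% of all genes tested were. It was called below 0 for 10 (25.6%), where 25.3% of all genes tested were, so that this share was near the background. The difference itself was tested (proficient effect minus deficient effect, log2 scale, edgeR with adjusted p under 0.05). With a single pair of lines for each BRCA1 state, it cannot be assigned to that state. Among the glycolytic enzymes the difference was positive for PGK1 (1.66), HK2 (1.08), PGAM1 (0.81), TPI1 (0.69), GAPDH (0.65) and LDHB (0.65). It was negative for ALDOA (-1.76), PFKM (-1.32), PFKP (-1.13), PFKL (-1.06) and HK1 (-0.83). Of the regulators, PFKFB4 (1.09) and PDK3 (0.93) were positive and PDK1 (-0.80) was negative. In the HIF pathway EGLN3 (1.48), HIF1A (1.10) and ARNT (0.48) were positive, while EPAS1 (-1.08) and EGLN1 (-0.48) were negative. Of the HIF targets CA12 (1.52) was positive and NDRG1 (-0.80) negative, and of the transporters SLC2A1 (-0.52) was negative. With the GC trend removed the difference was 1.16 for GAPDH, -0.67 for PFKP, -0.35 for NDRG1 and -0.32 for SLC2A1. It was then -1.07 for ALDOA and -0.03 for PFKL, whose call was lost. The calls of ALDOA, PFKL, PFKFB4, SLC2A1 and EGLN1 were each lost when some single library was left out, as given above.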

How the results depend on the processing

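The number of the 39 genes called in each direction stayed within 1.5 times its main value in every comparison under every alternative except removal of the GC trend. With the GC trend removed, with or without the replicate block, 22 genes instead of 11 fell in the deficient resistance comparison, and 22 instead of 14 rose in resistant proficient against resistant deficient libraries. That removal also shifted the median over all genes tested by over 0.1 on the log2 scale, to -0.08 instead of 0.03 in the deficient resistance comparison, to 0.10 instead of -0.02 between the resistant groups, and to 0.05 instead of -0.08 for the difference of the resistance effects. A sign change is counted here where either value was called. By that count removal of the GC trend, in both forms, turned these log2 values. In the deficient resistance comparison it gave GPI -0.16, PFKP -0.51, PFKFB4 -0.44, GAPDH -0.56, ENO1 -0.34, PKM -0.44 and SLC16A3 -0.82. Between the parental groups it gave PFKFB3 0.19, ENO1 0.004 (0.005 with the block) and SLC16A1 -0.031. Between the resistant groups it gave PFKFB3 0.56, PFKFB4 0.66 (0.67 with the block), GAPDH 0.93, ENO1 0.46, PDK1 -0.34, EGLN1 -0.15, NDRG1 0.59 and ADM 0.76. For the difference of the resistance effects it gave ENO1 0.45. The cause was not tested. Called in every alternative were 16 of 19 genes in the deficient and 20 of 27 in the proficient resistance comparison, 27 of 32 and 20 of 27 between the parental and between the resistant groups, and 17 of 22 for the difference. Leaving out each library in turn gave 6 to 8 rising and 10 to 12 falling genes in the deficient and 14 to 20 rising and 6 to 9 falling genes in the proficient resistance comparison. The replicate numbers were not shown to pair the libraries (correlation of deviations 0.121 between the deficient groups, -0.095 between the proficient groups, -0.052 between the parental and 0.212 between the resistant groups). With the replicate number as a block 8 genes rose and 11 fell in the deficient and 18 rose and 9 fell in the proficient resistance comparison, as without it. The block added 2 calls, GAPDH between the resistant groups (-0.19) and PKM for the difference (0.27), and lost none of the 39 genes' calls. The PKM difference missed the threshold narrowly in the main fit (edgeR adjusted p = 0.0521). It was also called in most other alternatives, among them RLE scaling, DESeq2 and removal of the GC trend (0.76). With 2 libraries a group, where leaving 1 out leaves a lone library, that library is assumed to vary like the others. Depth limits CA9, ANKRD37, ALDOC and SLC2A3, which had few counts.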

Other observations

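Per kilobase of annotated transcript, GAPDH, ENO1, LDHB, PKM, TPI1 and LDHA, all enzymes of the later steps of glycolysis, had the highest mean levels over the 4 groups among the 40 genes. ENO1 stood at 1536 CPM per kilobase in resistant deficient and 1273 in parental deficient libraries, and at 963 in resistant proficient and 836 in parental proficient libraries. GAPDH stood at 1383, 1334, 1214 and 745 CPM per kilobase in the same order of groups. In proficient libraries LDHB, at 944 in resistant and 841.5 in parental ones, was above PKM, at 346 and 260.1, whereas PKM was above LDHB in resistant deficient libraries, at 777.5 against 527, and below it in parental deficient ones, at 702 against 735. The ratio of P4HA2 to P4HA1 per kilobase was higher in each resistant group than in its parent, at 0.246 and 0.237 in resistant deficient against 0.118 and 0.135 in parental deficient libraries, and at 0.182 and 0.166 in resistant proficient against 0.0617 and 0.0738 in parental proficient libraries. Transcript lengths are those of 1 annotated transcript per gene, so these levels are approximate.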
